A study of Triticum aestivum with 4 samples.

Results

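The roots of 2 common wheat (Triticum aestivum) cultivars were compared under osmotic stress: the Luohan No.2 PEG array was set against the Chinese Spring PEG array, 1 array on each side. The comparison covered the 14863 probe sets, of 61115 left after controls were set aside (24.3%), whose signal was 100 or more on at least 1 of these 2 arrays. A probe set is a group of short probes that reads 1 transcript, or several close ones. A Luohan No.2 seedling sample and a Chinese Spring seedling sample at the 2-leaf stage had stood for 6 h in a PEG 6000 solution with an osmotic potential of -0.49 MPa. A Luohan No.2 sample and a Chinese Spring sample kept in tap water made up the other 2 of the 4 arrays of the study. Chinese Spring is the cultivar of the wheat reference genome. The labels do not say how many seedlings entered a sample.

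With 1 array per group there were no replicates, the number of arrays limits the precision, and no test or p-value can be given. Every statement here describes these arrays. A difference between cultivars on an array also holds sequence variants that change how well a transcript binds its probes, and a lower signal from a whole root cannot tell fewer cells of a type from less RNA per cell.

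Polyethylene glycol of high molecular weight enters root cells little. It lowers the water potential of the solution, so that roots meet an osmotic stress like that of drying soil. Plants answer with abscisic acid signalling, with the synthesis of compatible solutes, and with late embryogenesis abundant (LEA) proteins, a family that includes the dehydrins and is known from drying seeds and from tissues short of water.

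Of 50 named genes, 1 was 2-fold or more higher in Luohan No.2 under PEG and 8 were 2-fold or more higher in Chinese Spring, where 9.82% and 10.7% of all 14863 probe sets were. The 8 included the dehydrin Rab15 (4.97-fold), the LEA protein LEA1 (3.96-fold), and the methyltransferases PEAMT1 (3.06-fold) and PIMT (3.55-fold). In water Rab15 was below 25 in both cultivars, Luohan No.2 was the higher by 1.39-fold for LEA1 and by 1.3-fold for PEAMT1, and PIMT was higher there by at least 1.51-fold. The 1 gene higher in Luohan No.2 was PR5, a thaumatin-like pathogenesis-related protein (4.58-fold), which was also higher there in water. Probe sets below a signal of 25 on both water arrays, a set chosen after its values had been seen, split unevenly. Of 153, 7 were 2-fold or more higher in Luohan No.2 under PEG, and 135 were 2-fold or more higher in Chinese Spring. They entered only through a PEG signal of 100 or more, 55 of them in Luohan No.2 and 146 in Chinese Spring. Their differences are thus in part fixed by the selection. The Luohan No.2 PEG array also differed in its labelling controls, and the part of this was not tested.

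Signals are on the linear MAS5 scale after the 2 arrays of a pair were brought to the same distribution (quantile normalisation). The PEG pair and the water pair were each normalised on their own, so a water value stands beside a PEG value only as a side-by-side level. The same limit holds where the 4 arrays are ranked for a gene. Folds of PEG over water are from all 4 arrays normalised together, and they share the PEG arrays with the cultivar comparison. Signals below 25 were raised to 25 before folds were taken. A fold with such a signal on 1 side is a lower bound, written as at least N-fold, and no fold is given with such a signal on both. Log2 differences are Luohan No.2 over Chinese Spring, so a positive value means higher in Luohan No.2.

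The labelled tissue was checked with the few markers on hand. WZF1, a zinc finger gene taken here as a root marker, had signals of 387.1 on the Luohan No.2 PEG array and 507.5 on the Chinese Spring PEG array. TaDMAS1, the deoxymugineic acid synthase that makes the iron chelators released by grass roots, had 341.5 and 297.7 on the same arrays. TaALMT1, a root malate transporter, was below 100 on both, at 13.2 and 62.4. Of 7 named green-tissue genes on the array, 2 (rbcl and petC) reached 100 on a PEG array.

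The labelling controls differed between the cultivars' arrays. The 5' to 3' signal ratio of a control compares probes at the 2 ends of 1 transcript, and a low ratio marks labelled copies that stop short of the 5' end. For the bacterial dap transcript, which Affymetrix supplies to be added to the RNA before labelling, the 3 versions of the ratio lay between 0.0359 and 0.0598 on the Luohan No.2 PEG array and between 0.219 and 0.32 on the Chinese Spring PEG array. They lay between 0.0378 and 0.076 on the Luohan No.2 water array and between 0.237 and 0.372 on the Chinese Spring water array. The 5' signals behind the dap ratios were 13.6, 18.8 and 28.9 on the Luohan No.2 PEG array, so 2 of 3 were below 25, against 187.5, 211.4 and 295.4 on the Chinese Spring PEG array. On the water arrays they were 28.4 to 49.8 in Luohan No.2 against 188.8 to 300.0 in Chinese Spring. Both Luohan No.2 arrays were below both Chinese Spring arrays for dap. The 5' signals of the bacterial thr transcript were all below 25 on the Luohan No.2 arrays, between 10.7 and 21.0, so its ratios are not compared.

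**Figure D1:**
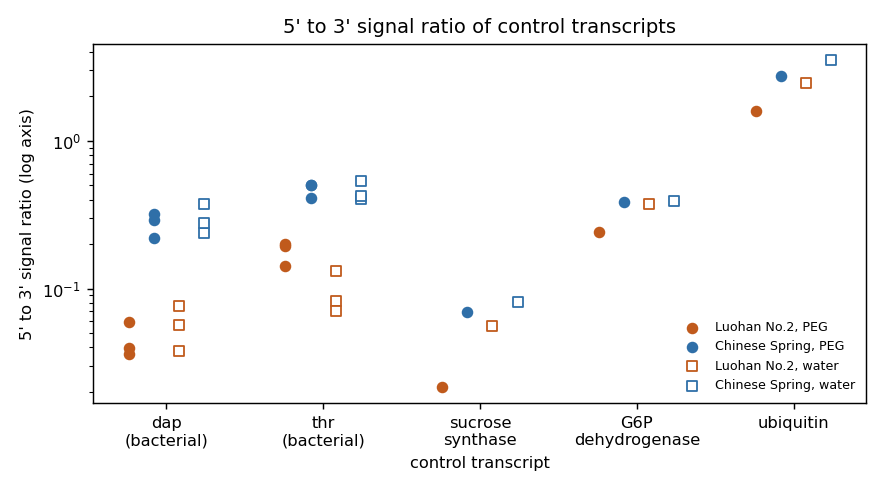
Ratio of the 5' to the 3' signal (log axis) of 5 control transcripts on each of the 4 arrays, with the cultivars in colour, PEG arrays as filled circles and water arrays as open squares; dap and thr have 3 versions each. The lowest sucrose synthase ratio (0.0216) was on the Luohan No.2 PEG array, and both Luohan No.2 arrays lay below both Chinese Spring arrays for dap. The thr ratios of the Luohan No.2 arrays rest on 5' signals between 10.7 and 21.0, below 25, and are not compared.

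For the wheat controls the Luohan No.2 PEG array was the lowest of the 4. Its sucrose synthase ratio was 0.0216, against 0.0693 on the Chinese Spring PEG array, 0.0554 on the Luohan No.2 water array and 0.0805 on the Chinese Spring water array. For glucose-6-phosphate dehydrogenase it was 0.243, against 0.388 on the Chinese Spring PEG array, with 0.375 and 0.39 in water. For ubiquitin it was 1.59, against 2.73 on the Chinese Spring PEG array, with 2.45 and 3.5 in water. Completeness of labelling, the array and the cultivar cannot be told apart in this design. The hybridisation controls (bioB, bioC, bioD and cre), which are added after labelling, had log2 differences between -0.12 and 0.21 in the PEG pair. In the water pair each was lower on the Luohan No.2 array. The deposited signals there were 207.3 against 253.8 for the 5' end of bioB and 2300.7 against 3759.4 for that of bioD.

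Across the 14863 probe sets, 1460 (9.82%) were 2-fold or more higher in Luohan No.2 under PEG and 1593 (10.7%) were 2-fold or more higher in Chinese Spring. The other 11810 (79.5%) were less than 2-fold apart. At 4-fold or more the counts were 380 (2.56%) higher in Luohan No.2 and 488 (3.28%) higher in Chinese Spring. At 8-fold or more they were 117 (0.787%) and 149 (1.0%). The median log2 difference was 0.03, the middle 50% lay between -0.45 and 0.49, and the 5th and 95th percentiles were -1.59 and 1.41. The most extreme values, 8.30 and -8.40, each had 1 array below 25 and are bounds, of at least 316-fold on the Luohan No.2 side and at least 338-fold on the Chinese Spring side. Among probe sets at 25 or more on both PEG arrays the extremes were 7.99 (Ta.18957.1.S1_at) and -7.30 (LOC542898).

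Part of the larger differences follows from how probe sets were chosen. A probe set with 100 or more on 1 array and below 25 on the other is at least 4-fold apart by construction. There were 167 such probe sets below 25 on the Chinese Spring PEG array and 152 below 25 on the Luohan No.2 PEG array. At the edge of the choice, Ta.9652.2.S1_s_at entered with 100 in Luohan No.2 against 58.8 in Chinese Spring, and TaAffx.14828.1.S1_at stayed out with 99.9 and 85.1. The higher signal of the pair was between 100 and 110 for 692 probe sets, and between 90 and 100 for 789 that were left out.

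The share of 2-fold differences was lowest among the brightest probe sets. Of 4412 with a geometric mean of the 2 PEG signals between 100 and 200, 8.61% were 2-fold or more higher in Luohan No.2 and 9.34% in Chinese Spring. Of 458 at 3200 or more, 1.97% and 1.75% were. The SD of the log2 differences over probe sets was 0.97 in the first of these classes and 0.47 in the second. A further 1779 had a geometric mean between 50 and 100, with shares of 26.6% and 28.2%. Since a probe set had to reach 100 on 1 PEG array, those had to be below 100 on the other, so their differences were in part fixed by the selection and nothing is read from them.

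**Figure D2:**
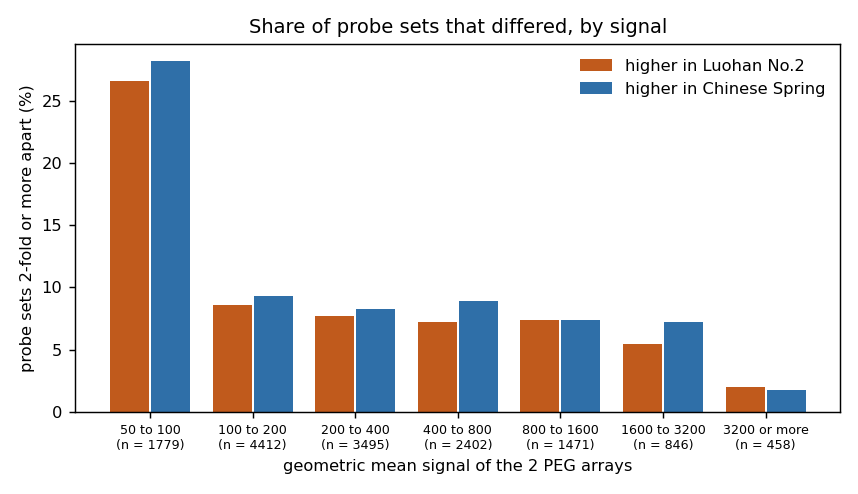
Percentage of probe sets 2-fold or more higher in Luohan No.2 (left bar) or Chinese Spring (right bar) under PEG, by the geometric mean signal of the 2 PEG arrays. The shares are 8.61% and 9.34% between 100 and 200, and 1.97% and 1.75% at 3200 or more; those between 50 and 100 are in part fixed by the selection and are not read.

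Probe sets that read the same transcript give a partial measure of noise on these 2 arrays. In 1709 groups of probe sets made to the same sequence (3507 probe sets), the pooled SD of the log2 differences within a group was 0.41. Of 194 such groups with any probe set 2-fold or more higher in Luohan No.2, 94 (48.5%) had all of them so. Of 233 with any 2-fold or more higher in Chinese Spring, 120 (51.5%) had all of them so. No such group held probe sets past 2-fold in both directions. In the wider sequence clusters, which can hold homoeologues from the 3 wheat genomes and splice forms, the SD was 0.61, and 13 of 2580 clusters held both directions. On this scale a 2-fold difference is 1. Probe sets of 1 sequence can share probes, and they share the RNA and the arrays, so this spread leaves out variation between plants and arrays.

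Probe set design also went with direction. Among 2056 probe sets with the suffix _a_at, which marks probes shared by transcripts of 1 gene, 74 (3.6%) were 2-fold or more higher in Luohan No.2 and 254 (12.4%) in Chinese Spring. Among 8800 with the plain suffix _at the shares were 11.9% (1046) and 10% (880), so the balance of the 2 directions over all probe sets turned when the shared-sequence types were left out. The part of transcript completeness or of probe position in this was not tested.

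Gene names could be given to few of these probe sets. The platform annotation paired 649 of the 14863 with 1 gene each, which made 465 genes. Of these, 50 have an informative name and 415 are known by a locus number. The gene lists below hold only genes with an informative name. Their counts of genes on the array leave out locus-number genes and probe sets with no entry, so they are no counts of whole families. By the brightest probe set of each, 1 of the 50 named genes (2.0%) was 2-fold or more higher in Luohan No.2 and 8 (16%) in Chinese Spring, beside 9.82% and 10.7% of all probe sets. Among the 8, LEA1, rbcl, PEAMT1 and Glc1 were read only by shared-sequence probe sets (_x_at or _a_at). The median log2 difference of the 50 was -0.22, with 17 above 0 and 33 below 0. Of the 415 locus-number genes, 23 (5.54%) were 2-fold or more higher in Luohan No.2 and 55 (13.3%) in Chinese Spring, and the median was -0.15. The genes with an entry, each read by its brightest probe set, leaned further towards Chinese Spring than the probe sets as a whole. These measures are unlike, since the shares over all count every probe set, and direction went with probe set design.

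The array held 5 named genes for LEA proteins, dehydrins and Em proteins. Of these, 2 had a signal of 100 or more under PEG, and both were higher in Chinese Spring. Rab15, an abscisic acid responsive dehydrin, had signals of 561.4 on the Luohan No.2 PEG array and 2789.6 on the Chinese Spring PEG array, with 21.2 and 8.3 on their water arrays. It was high on both PEG arrays, higher in Chinese Spring by 4.97-fold (log2 -2.31), and below 25 on both water arrays. The Rab15 signal exceeded that in water by at least 22.3-fold in Luohan No.2 and by at least 114-fold in Chinese Spring. Its other 2 probe sets had 310.0 against 2634.6 (log2 -3.09) and 135.8 against 1389.0 (log2 -3.35). The 3 probe sets thus pointed the same way.

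LEA1 had signals of 722.3 on the Luohan No.2 PEG array and 2862.1 on the Chinese Spring PEG array, with 50.8 and 36.5 in water. Chinese Spring was 3.96-fold higher under PEG (log2 -1.99), while in water Luohan No.2 was slightly higher (log2 0.48). The LEA1 signal exceeded that in water by 14.5-fold in Luohan No.2 and by 81.6-fold in Chinese Spring. The median log2 difference of these 2 genes was -2.15 under PEG. No median is given for water, where Rab15 was below 25 in both cultivars. The other 3 genes of the list, EM, EMH2 and COR410, were below 25 on both PEG arrays.

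The methyl cycle supplies methyl groups for choline and glycine betaine synthesis, for lignin, and for the repair of proteins. Of 4 genes on this list, 2 were 2-fold or more higher in Chinese Spring under PEG, and the median log2 difference was -1.10, against 0.20 in water. PEAMT1, the phosphoethanolamine methyltransferase that begins choline synthesis, had 108.6 in Luohan No.2 against 332.0 in Chinese Spring under PEG, with 99.8 and 76.8 in water. Its Luohan No.2 signals were alike in PEG and water (1.13-fold apart), while the Chinese Spring PEG signal was 4.41-fold above water. PIMT, a methyltransferase that repairs damaged aspartyl residues in ageing proteins, had 31.7 in Luohan No.2 against 112.5 in Chinese Spring under PEG, with 37.8 and 15.8 in water. It was 3.55-fold higher in Chinese Spring under PEG, and its Luohan No.2 signals were close to the level of 25. With the floor raised to 50 its log2 difference under PEG was -1.17, against -1.83 with the floor at 25.

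SAHH, S-adenosylhomocysteine hydrolase, which clears the by-product of methyl transfer, had 8957.9 in Luohan No.2 against 13457.6 in Chinese Spring under PEG, with 8660.2 and 8540.5 in water. The log2 difference was -0.59 under PEG, with -0.73 by a second probe set, and 0.02 in water. The Chinese Spring PEG array was the highest of the 4, and the other 3 lay close together. COMT1, an O-methyltransferase of the lignin pathway, had a log2 difference of 0.19 (7283.6 in Luohan No.2 against 6372.0 in Chinese Spring).

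Of 2 measured genes of peroxide and methylglyoxal detoxification (4 named on the array), 1 was 2-fold or more higher in Chinese Spring. The list median was -0.80 under PEG and 0.14 in water. PER1, a 1-Cys peroxiredoxin known from seeds, had 56.3 in Luohan No.2 against 124.2 in Chinese Spring under PEG, with 41.6 and 45.4 in water. The Chinese Spring PEG array stood above the other 3, and the PER1 difference under PEG was 2.21-fold (log2 -1.14). With log2(signal + 16) in place of the level of 25 it was under 2-fold, at -0.95. The probe sets of GSTZ1, a zeta-class glutathione transferase, did not share a direction: the brightest had -0.46, and the lowest and highest of the 3 were -0.46 and 0.79.

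Of 4 named wall and glucoside hydrolase genes on the array, 2 were measured. Their median log2 difference was -1.0 under PEG and 0.53 in water. Glc1 had 258.0 in Luohan No.2 against 699.6 in Chinese Spring under PEG, with 66.3 and 106.4 in water. Both PEG arrays were above both water arrays, and Chinese Spring was 2.71-fold higher under PEG. TaGlu1a, a beta-glucosidase, had 205.9 in Luohan No.2 against 306.0 in Chinese Spring under PEG, with 277.8 and 83.3 in water. Chinese Spring was 1.49-fold higher under PEG, while Luohan No.2 was 3.34-fold higher in water, and the Chinese Spring water array was the lowest of the 4.

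**Figure D3:**
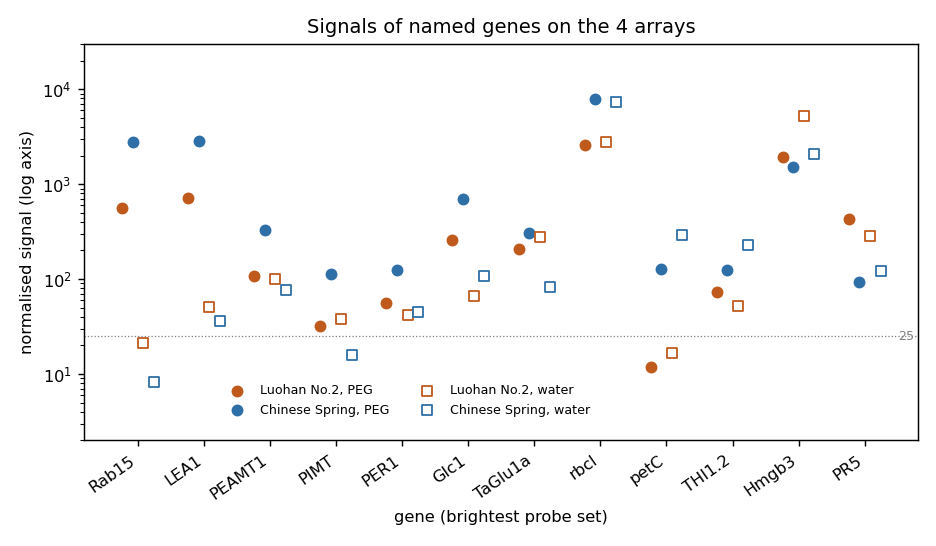
Normalised signal (log axis) of 12 named genes by their brightest probe sets, with Luohan No.2 and Chinese Spring in colour, PEG arrays as filled circles and water arrays as open squares; the dotted line is the level of 25. Rab15 and LEA1 were low on both water arrays and, under PEG, stood at 561.4 and 722.3 in Luohan No.2, against 2789.6 and 2862.1 in Chinese Spring.

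Of 7 named photosynthesis genes on the array, 2 (petC and rbcl) had a signal of 100 or more on a PEG array. These 2 differed between cultivars with and without PEG. Both were 2-fold or more higher in Chinese Spring, with a median log2 difference of -1.98 under PEG and -2.47 in water. These medians are limits set by the level of 25, since petC was below it on both Luohan No.2 arrays, and their sizes are not compared. The gene petC encodes the Rieske iron-sulphur protein of the cytochrome b6f complex. It had 11.8 in Luohan No.2 against 127.4 in Chinese Spring under PEG, with 16.6 and 291.9 in water, so both Luohan No.2 arrays were below 25. Chinese Spring exceeded Luohan No.2 by at least 5.09-fold under PEG and by at least 11.7-fold in water. For rbcl, the large subunit of Rubisco, the signals were 2614.2 in Luohan No.2 against 7950.4 in Chinese Spring under PEG, with 2813.6 and 7382.9 in water. The rbcl difference was thus 3.04-fold under PEG and 2.62-fold in water, and each cultivar's PEG and water signals were close. Of the other 5 genes, PsbO and PsbP of the oxygen-evolving complex had PEG signals of 21.2 and 1.6 in Luohan No.2, against 70.4 and 50.9 in Chinese Spring. PRK, a kinase of the Calvin cycle, and the thioredoxin Trx-M had 12.2 and 12.8 in Luohan No.2, against 28.0 and 30.9 in Chinese Spring. The fifth, FBP, had 24.5 and 40.9. Whether the samples held different amounts of green tissue was not tested.

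The defence list held 7 named genes on the array and 3 above the signal limit. The median log2 difference was 0.42 under PEG and 0.62 in water. PR5 had 430.6 in Luohan No.2 against 93.9 in Chinese Spring under PEG, with 287.5 and 121.1 in water. Both Luohan No.2 arrays were above both Chinese Spring arrays, and the PR5 difference was 4.58-fold under PEG (log2 2.20) and 2.37-fold in water. XIP-I, an inhibitor of fungal xylanases, had 1887.5 in Luohan No.2 against 1412.2 in Chinese Spring under PEG, with 798.2 and 518.9 in water (log2 0.42 and 0.62). It was above its water level in both cultivars. THI1.2, a thionin, had 72.8 in Luohan No.2 against 125.8 in Chinese Spring under PEG, with 52.2 and 229.4 in water. Chinese Spring was 1.73-fold higher in THI1.2 under PEG and 4.40-fold higher in water.

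Of 5 measured histone and chromatin genes (6 named on the array), none was 2-fold apart under PEG by its brightest probe set. The median log2 difference was 0.62, with 0.15 in water. H2A-9, a core histone, had 2867.7 in Luohan No.2 against 1606.8 in Chinese Spring under PEG, with 2122.9 and 1912.4 in water. Its 6 probe sets had log2 differences between 0.46 and 0.84. H2A-3 had 869.3 and 510.8 under PEG (log2 0.77) and 544.3 and 652.4 in water, so the Luohan No.2 PEG array was the highest of the 4 for both histones. The 7 probe sets of wcH2B-8, an H2B histone, ran from -2.34 to 0.62, and their mean was -0.19 where the brightest had 0.62. For wcH2B-6 the difference was -0.18, and it was 0.09 in the signals as deposited. Hmgb3, a high mobility group protein that bends DNA in chromatin, had 1936.4 in Luohan No.2 against 1510.9 in Chinese Spring under PEG, with 5223.4 and 2056.1 in water. A second Hmgb3 probe set had 1644.2 and 239.1 under PEG (log2 2.78) and 2113.0 and 265.0 in water (log2 2.99). For Hmgb3 both probe sets were higher in Luohan No.2, by unequal amounts.

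The other lists held no gene past 2-fold under PEG by its brightest probe set. Among 5 measured translation genes of 6, with a median of -0.47 (-0.09 in water), the initiation factor gene eIF-2-beta had 677.6 in Luohan No.2 against 1192.1 in Chinese Spring under PEG, with 1238.6 and 1322.0 in water. The Luohan No.2 PEG array stood below the other 3 for it (log2 -0.82). TEF1, elongation factor 1-alpha, and Eif4B had -0.57 and -0.47, while eIF4E, which binds the mRNA cap, and RPS29, a ribosomal protein, had 0.50 and 0.72. The other RPS29 probe set had -0.33.

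The 7 tubulin and profilin genes lay between -0.35 (PRO1, a profilin that binds actin) and 0.16 (tubb1, a beta-tubulin), with a median of -0.16 (-0.23 in water). The brighter TUBA probe set, for alpha-tubulin, had 5036.0 in Luohan No.2 against 6017.2 in Chinese Spring under PEG (log2 -0.26). Its other probe set, Ta.723.1.S1_at, had 37.3 and 459.0 under PEG (log2 -3.62), with 887.9 and 1039.0 in water. That second TUBA probe set was low on the Luohan No.2 PEG array alone, the array on which the wheat controls had their lowest 5' to 3' ratios. The part of these ratios in the difference was not tested.

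Among 3 measured metal chelator and transport genes of 4 (median -0.21, and 0.36 in water), TaDMAS1 had 0.20 by its brightest probe set and -0.24 and -0.19 by the others. TaPCS1, a phytochelatin synthase, and TaTPC1, a vacuolar calcium channel, had -0.24 and -0.21. Of 2 transcription genes (median -0.22, and -0.20 in water), WZF1 had -0.39 and TBP1, the TATA-box binding protein, had -0.06. AGP-S, named for the small subunit of ADP-glucose pyrophosphorylase, was the 1 gene matched by the carbon metabolism list, at -0.40. The 3 named genes of hormone synthesis did not reach a signal of 100.

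The remaining 12 named genes were in no list, and none was 2-fold apart (median -0.09, and -0.10 in water). The lowest was FKBP70, a peptidyl-prolyl isomerase, with 942.6 in Luohan No.2 against 1687.9 in Chinese Spring under PEG (log2 -0.84). TCTP, the translationally controlled tumour protein homologue, had 6368.2 and 9430.0 (log2 -0.57). The highest was 1-FEH, a fructan exohydrolase that releases sugar from fructans, with 1157.4 in Luohan No.2 against 722.0 in Chinese Spring under PEG, with 567.6 and 627.4 in water (log2 0.68 and -0.14). The Luohan No.2 PEG array was the highest of the 4 for 1-FEH. AdSS and APT1, enzymes of purine nucleotide synthesis and salvage, had 0.41 and 0.27, and the 3 probe sets of ha1 lay between 0.36 and 0.48.

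Among genes known by a locus number, the most extreme values lay beyond those of the named genes on both sides. LOC542898 had 39.4 in Luohan No.2 against 6209.9 in Chinese Spring under PEG, with 126.6 and 2031.4 in water. It was high on both Chinese Spring arrays, 157-fold under PEG and 16-fold in water. LOC606363 had 31.2 and 518.2 under PEG (log2 -4.06) with -3.56 in water, and LOC543448 had 38.8 and 448.4 (log2 -3.53) with -4.01 in water. LOC543016 was below 25 on both Luohan No.2 arrays and differed by at least 9.52-fold under PEG and by at least 6.89-fold in water. LOC100125736 had 62.6 in Luohan No.2 against 634.3 in Chinese Spring under PEG (10.1-fold), and 19.0 and 36.6 in water, where the difference was at least 1.46-fold. All 5 were higher in Chinese Spring in both conditions, LOC100125736 by under 2-fold in water.

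The 5 locus-number genes with the highest values were also higher in Luohan No.2 in water, by less in 4 of them. LOC543444 had 509.8 in Luohan No.2 against 37.4 in Chinese Spring under PEG (13.6-fold), with 216.2 and 115.8 in water. LOC542864 had 604.4 and 47.5 (12.7-fold), with 268.1 and 161.6 in water. For both, the Luohan No.2 PEG array was the highest and the Chinese Spring PEG array the lowest of the 4. LOC543176 had 954.4 and 88.0 (10.8-fold), with 538.5 and 210.6 in water, and its 3 probe sets had log2 differences between 3.44 and 4.54. LOC543105 and LOC543317 had log2 differences of 2.09 and 1.92 under PEG and 0.43 and 2.06 in water.

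Among probe sets with no gene entry and 25 or more on both PEG arrays, the 2 highest and the 2 lowest differences are given here. Ta.18957.1.S1_at had 7510.1 in Luohan No.2 against 29.4 in Chinese Spring under PEG (255-fold), with 7332.9 and 30.0 in water (244-fold). Ta.28246.1.S1_at had 1226.0 and 26.8 under PEG (45.8-fold) and differed by at least 38.9-fold in water. Both were bright on the Luohan No.2 arrays and near 25 on the Chinese Spring arrays, with and without PEG. The 2 lowest were below 25 on both water arrays. Ta.5833.1.S1_at had 65.9 in Luohan No.2 against 5297.8 in Chinese Spring under PEG (80.4-fold), with 7.8 and 8.2 in water, and Ta.1360.1.S1_at had 34.1 and 2198.6 (64.5-fold), with 2.0 and 22.8. Both were bright on the Chinese Spring PEG array alone.

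The water pair shares no array with the PEG pair, so it shows which cultivar differences were there without stress. In both pairs, however, the 5' to 3' ratios of the added dap transcript were lower on the Luohan No.2 array. Over the same 14863 probe sets, 1060 (7.13%) were 2-fold or more higher in Luohan No.2 in water and 882 (5.93%) in Chinese Spring. Across probe sets the log2 signals of the 2 cultivars correlated at r = 0.80 under PEG and 0.88 in water, and the SD of the log2 differences was 1.0 under PEG and 0.83 in water. The cultivar difference under PEG correlated with that in water at r = 0.48 across the 14863 probe sets. These are descriptions across probe sets, which share arrays and are no replicates. The choice of probe sets by their PEG signal also leaves more room for spread in the PEG pair.

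Of the 1460 probe sets 2-fold or more higher in Luohan No.2 under PEG, 475 were so in water too, which is 32.5% of the PEG list and 44.8% of the water list. Of the 1593 higher in Chinese Spring under PEG, 384 were so in water too, which is 24.1% of the PEG list and 43.5% of the water list. Their median log2 difference in water was 0.54 for those higher in Luohan No.2 (1.42 under PEG) and -0.19 for those higher in Chinese Spring (-1.53 under PEG). Probe sets below 25 on both water arrays could only give 0 in water. They made up 135 of those higher in Chinese Spring under PEG and 7 of those higher in Luohan No.2. Conversely, of the probe sets less than 2-fold apart under PEG, 508 favoured Luohan No.2 in water by 2-fold or more and 471 favoured Chinese Spring.

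The larger the difference under PEG, the more often it was also there in water, up to 16-fold. Of 380 probe sets 4-fold or more higher in Luohan No.2 under PEG, 260 (68.4%) were at least 2-fold higher there in water, and of 40 at 16-fold or more, 39 (97.5%) were. Of 488 4-fold or more higher in Chinese Spring, 200 (41.0%) were at least 2-fold higher there in water, and of 46 at 16-fold or more, 33 (71.7%) were. At 32-fold or more it was 16 of 16 for Luohan No.2 and 11 of 19 for Chinese Spring. Differences of 32-fold or more in favour of Luohan No.2 were thus all there without stress, and those in favour of Chinese Spring were only in part. Probe sets below 25 on both water arrays could not count as 2-fold in water, and most of those were higher in Chinese Spring under PEG.

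**Figure D4:**
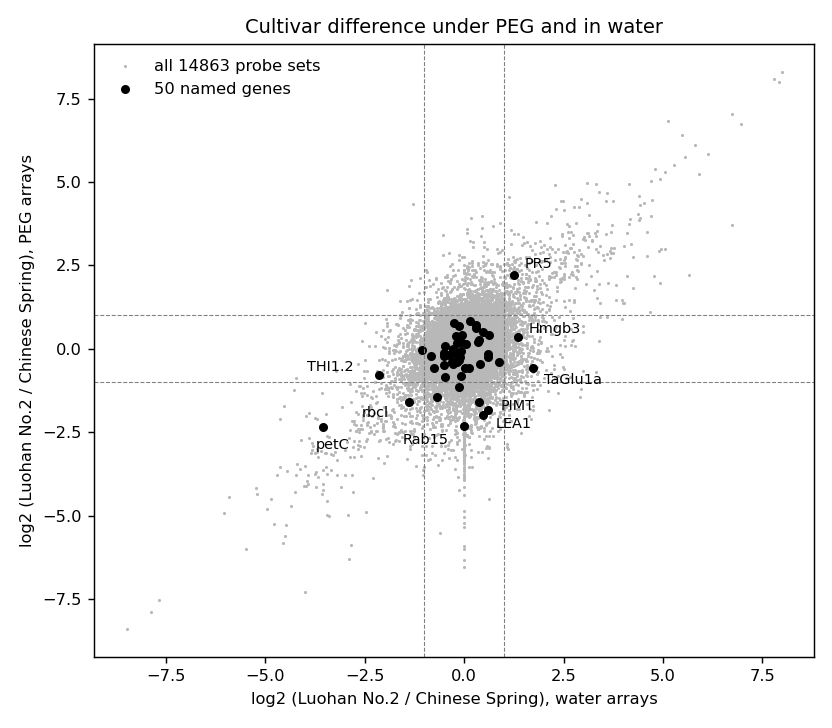
Log2 difference of Luohan No.2 over Chinese Spring under PEG (vertical axis) against that in water (horizontal axis) for 14863 probe sets (grey) and the 50 named genes (black, by their brightest probe sets); dashed lines mark 2-fold. The points along the vertical line at 0 in water include probe sets below 25 on both water arrays. Of these, 7 were 2-fold or more higher in Luohan No.2 under PEG and 135 in Chinese Spring, differences in part fixed by the selection.

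Of the 50 named genes, 1 was 2-fold or more higher in Luohan No.2 in both conditions (PR5) and 2 were 2-fold or more higher in Chinese Spring in both (petC and rbcl). The other 6 past 2-fold under PEG, which were Rab15, LEA1, PIMT, PEAMT1, Glc1 and PER1, were higher in Chinese Spring under PEG and had log2 differences between -0.68 and 0.59 (a bound, for PIMT) in water, where Rab15 was below 25 in both cultivars. Of the locus-number genes, 5 were 2-fold or more higher in Luohan No.2 in both conditions and 13 were 2-fold or more higher in Chinese Spring in both.

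Probe sets below 25 on both water arrays split unevenly between the cultivars. This set was chosen after its values had been seen. Of the 14863 probe sets, 153 were below 25 on both water arrays, so that each had a signal of 100 or more only under PEG. Of these 153, 55 reached 100 on the Luohan No.2 PEG array and 146 on the Chinese Spring PEG array. Their median signal was 64.7 in Luohan No.2 against 343.4 in Chinese Spring under PEG. Of the 153, 7 (4.58%) were 2-fold or more higher in Luohan No.2 and 135 (88.2%) in Chinese Spring, beside 9.82% and 10.7% of all 14863. The median log2 difference was -2.44, beside 0.03 over all 14863. Since 146 of the 153 entered with 100 or more in Chinese Spring and 55 in Luohan No.2, these shares and medians are in part fixed by the selection. On the Luohan No.2 PEG array 20 of the 153 were below 25, and on the Chinese Spring PEG array 4 were.

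Few of these 153 could be named. A gene entry was paired with 10 of them, for 7 genes, of which 1 was higher in Luohan No.2 and 6 in Chinese Spring. They include the 3 probe sets of Rab15 described above. LOC542888 had 1137.2 in Luohan No.2 against 4371.0 in Chinese Spring under PEG by 1 probe set and 45.2 and 361.5 by another. LOC543252 had 41.8 and 376.6, and LOC543263 had 60.4 and 457.4. LOC100037555 was below 25 in Luohan No.2 and had 112.4 in Chinese Spring, and LOC542782 had 97.7 and 254.4. The exception was LOC542792, with 249.4 in Luohan No.2 against 121.2 in Chinese Spring. All of these genes but LOC100037555 thus had signals above 25 in both cultivars under PEG. The low 5' to 3' ratios of the Luohan No.2 PEG array move with this result, and their part in it was not tested.

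**Figure D5:**
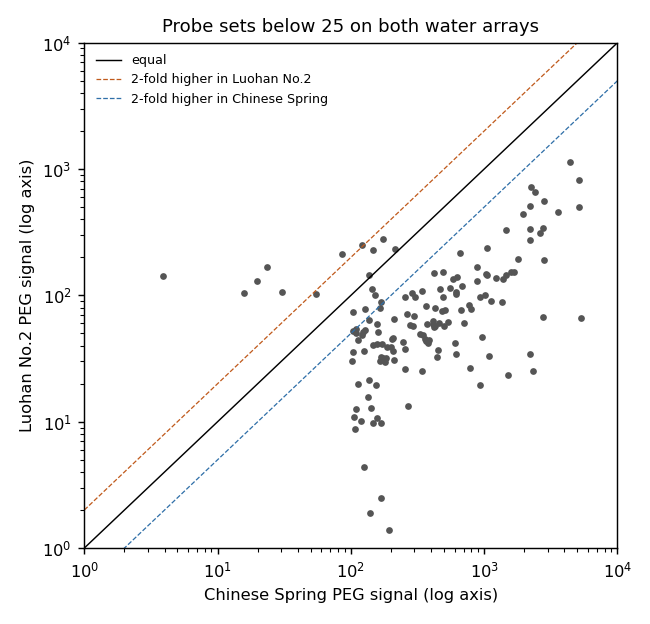
PEG signals (log axes) of the 153 probe sets below 25 on both water arrays, with Luohan No.2 on the vertical axis and Chinese Spring on the horizontal axis; lines mark equal signals and 2-fold differences. Most points lie below the lower line: 7 were 2-fold or more higher in Luohan No.2, and 135 in Chinese Spring. These differences are in part fixed by the selection.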

How the data were processed

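The authors deposited 1 intensity per probe set and array on a linear scale, computed by MAS5 (per the submitters' processing notes, with the version not given in the sources used here). Without the top and bottom 2%, the deposited values averaged 100.02 on each array, and their medians were 13.9 and 20.2 on the Luohan No.2 and Chinese Spring PEG arrays. No detection calls were used. Of 61290 probe sets, 111 AFFX and 64 RPTR controls were set aside. Each pair of arrays was quantile-normalised, floored at 25 and put on the log2 scale (Python 3.11.15, pandas 2.3.3, numpy 2.4.6). The script was tested on simulated data.

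Genes came from the platform annotation, updated through RefSeq (IWGSC CS RefSeq v2.1): 1273 probe sets had 1 gene, 0 had several and 59842 had none, giving 771 genes, of which 770 were found in RefSeq and 102 had a name. A gene's value is that of its brightest probe set by mean over the PEG arrays. Values are given for the 15 highest and 15 lowest named genes, for gene lists, and for extremes among locus-number genes (5 each way) and unnamed probe sets with 25 or more on both PEG arrays (2 each way). The probe sets, gene lists and comparisons were chosen with earlier results of these data known. Alternatives were other scalings, floors, signal limits, probe set types and a mean over a gene's probe sets.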

Additional observations from a re-analysis of the deposited data

Results flagged for a closer look

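The cultivars differed in opposite directions with and without PEG for 104 of the 14863 probe sets. Of these, 27 were higher by 2-fold or more in Luohan No.2 under PEG and in Chinese Spring in water. That is 1.85% of the Luohan No.2 list under PEG, where 5.93% of all 14863 were 2-fold higher in Chinese Spring in water. The other 77 were higher by 2-fold or more in Chinese Spring under PEG and in Luohan No.2 in water. That is 4.83% of the Chinese Spring list under PEG, where 7.13% of all were 2-fold higher in Luohan No.2 in water. Reversals were thus less frequent than these shares over all probe sets. With 1 array per group this reversal was not tested. Of the 104, 86 had signals of 25 or more on all 4 arrays and 25 had signals of 100 or more on all 4. None of the 50 named genes was among them, and 7 of the 104 had a gene entry. LOC606352 had 360.4 in Luohan No.2 against 135.0 in Chinese Spring under PEG, and 101.6 and 310.5 in water. Its other probe set among these had 448.1 and 224.0 under PEG, and 166.3 and 422.8 in water. The remaining 5 were higher in Chinese Spring under PEG. LOC542804 among them had 1127.9 in Luohan No.2 against 3024.4 in Chinese Spring under PEG, with 70.6 and 12.2 in water. The Chinese Spring water signals of LOC542804, LOC543251, LOC100037562 and LOC100049041 were below 25, so their differences in water are bounds.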

How the results depend on the processing

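No paired analysis was possible because each group holds 1 array, and for the same reason no array could be left out. Counts moved with the number of probe sets compared. With 50 or more on an array, or with no minimum, 2235 were 2-fold or more higher in Luohan No.2 against 2365 in Chinese Spring. With 200 or more, 934 were higher in Luohan No.2 (307 in water too) and 1048 in Chinese Spring (226 in water too). Without shared-sequence probe sets (_s_at, _x_at, _a_at), 1046 of 8800 were higher in Luohan No.2 (349 in water too) and 880 in Chinese Spring (254 in water too), so the balance turned from 1460 and 1593. Other scalings and the pseudocount of 16 kept each of these counts within 1.5 times. Floors of 10 and 50 did so for the counts shared with water. They could not change the counts under PEG, since a signal of 100 or more is at least 2-fold above any floor up to 50. The photosynthesis median was -2.52 with the floor at 10, -1.48 with the floor at 50, -1.55 with 50 or more on an array and -1.03 with no minimum. With 200 or more, or with a PEG mean of 100 or more, the defence median was 1.31 and the methyl cycle median -0.59, since fewer genes remained. The wall hydrolase median was -0.57 with no minimum. Of probe sets below 10 on both water arrays, 1 was higher in Luohan No.2 and 53 in Chinese Spring under PEG; below 50, it was 38 and 222. Under PEG, the floor at 50 took PIMT to -1.17 and petC to -1.35, and the floor at 10 took petC to -3.43. A mean over probe sets took TUBA to -1.94 and Hmgb3 to 1.57, GSTZ1 to 0.05, RPS29 to 0.19, Rab15 to -2.92, wcH2B-8 to -0.19 and TaDMAS1 to -0.08. Without shared-sequence probe sets, 37 of the 50 named genes remained, with TUBA at -3.62 and Rab15 at -3.09. LEA1, rbcl, PEAMT1 and Glc1, which such probe sets alone had read, dropped out. The LEA, photosynthesis, methyl cycle and wall hydrolase medians could then not be given. In the settings where a gene was still measured, no difference of 2-fold or more in a named gene changed direction.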

Other observations

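Some named genes stayed below a signal of 100 on both PEG arrays and were not part of the comparison. The 3 gibberellin 20-oxidase genes, which act late in gibberellin synthesis, had higher PEG signals in Luohan No.2, at 57.4 against 2.2 in Chinese Spring for GA20ox1d, 42.2 against 12.3 for GA20ox1b and 31.9 against 2.0 for GA20ox1a. In water their signals were 18.7, 25.0 and 21.0 in Luohan No.2, against 12.3, 12.8 and 17.9 in Chinese Spring. All 3 were below 25 on the Chinese Spring arrays, and such homoeologues can share probes. XTH, an enzyme that remodels wall xyloglucan, had 23.4 in Luohan No.2 against 36.4 in Chinese Spring under PEG, with 79.6 and 27.0 in water. The thionin THI1.1 had 96.7 and 89.9 under PEG, with 83.2 and 181.7 in water.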
